A study of Mus musculus with 18 samples.

Results

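The calcium buffers, pumps and exchangers described here are 10 of the 18193 genes measured: the cytosolic buffers Calb1, Calb2 and Pvalb, the plasma membrane calcium pumps Atp2b1, Atp2b2, Atp2b3 and Atp2b4, and the sodium calcium exchangers Slc8a1, Slc8a2 and Slc8a3. The rule that takes them uses gene symbols and no measured value, and every probe set that the platform annotation assigned to one of these symbols was taken. That gave 23 of the 45101 probe sets on the array: 4 each for Calb1 and Slc8a1, 3 each for Atp2b1 and Atp2b2, 2 each for Atp2b3, Slc8a2 and Slc8a3, and 1 each for Calb2, Pvalb and Atp2b4. None of the 23 carried a second symbol.

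The series holds 18 mouse arrays in 6 groups of 3, with 1 sample on each array. The groups were motor neurons of the spinal cord, motor neurons of the facial nucleus of the brainstem, and ventral spinal cord tissue, each from SOD1 mutant and from wildtype mice, and all RNA had been amplified with T7 polymerase. SOD1 encodes an enzyme that removes superoxide, and mutant forms of it cause some inherited cases of amyotrophic lateral sclerosis, in which motor neurons die. The labels used here give no SOD1 allele, sex, strain or method of collecting the neurons, carry a title code that they do not explain, and they do not tie samples to animals. The p-values below therefore measure the spread between these samples only, which may be partly technical.

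Calcium that enters a neuron is first caught by soluble EF-hand proteins, then carried out through the plasma membrane by ATP-driven pumps and by exchangers that use the sodium gradient, or taken into the endoplasmic reticulum and mitochondria. Calbindin (Calb1), calretinin (Calb2) and parvalbumin (Pvalb) are the classic cytosolic buffers and are widely used as markers of classes of interneurons. Spinal and facial motor neurons are known for weak buffering of calcium and are lost in amyotrophic lateral sclerosis, whereas the eye muscle motor neurons that are spared contain more of these buffers.

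Levels are log2 intensities after quantile normalization over the 18 arrays, and a level belongs to 1 probe set, so levels of different genes are not set against each other. Each gene is described by the probe set that was brightest on average over the 18 arrays, unless another is named. A level under 8.79, the 40th percentile of all genes, is close to background, and differences from such a level are given on the log2 scale without a fold. Groups were tested with limma, and a difference was called at a Benjamini-Hochberg adjusted p under 0.05 over the 45037 probe sets that are not Affymetrix controls. Values are given as mean ± SD with n = 3 arrays in each group throughout, SE is limma's standard error of a log2 difference, and intervals are 95% confidence intervals.

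The labelled kinds of sample were checked against marker genes. The summed level of 7 motor neuron markers was 16.4 to 17.1 on the motor neuron arrays and 14.3 to 14.7 on the tissue arrays. Chat, Slc18a3, Isl1, Prph and Ache averaged higher in each motor neuron group than in tissue of its genotype. Slc5a7 did not: it averaged 9.9 in mutant and 9.7 in wildtype spinal motor neurons, against 10.3 and 10.1 in tissue. In facial motor neurons Slc5a7 averaged 10.5 in mutant and 9.8 in wildtype samples. Mnx1, a transcription factor of spinal motor neurons, averaged 12.46 in mutant and 12.25 in wildtype spinal motor neurons, and was close to background in facial ones, at 5.71 in mutant and 5.17 in wildtype samples. In tissue Mnx1 was below background too, at 7.98 in mutant and 7.82 in wildtype samples. Of 5 Hox genes that mark spinal position, all 5 were above background in spinal motor neurons and tissue and 0 were in facial motor neurons. Glial RNA was present on the motor neuron arrays too: 5 oligodendrocyte markers summed to 16.9 to 17.6 on them, against 19.0 to 19.2 in tissue, and 6 astrocyte markers to 16.5 to 17.0, against 18.3 to 18.7. On motor neuron arrays Mbp and S100b weigh most in these sums, and the other markers fell further below tissue. Mag averaged 11.5 in mutant and 11.7 in wildtype spinal motor neurons, against 15.9 and 16.1 in tissue. Gfap averaged 13.9 in mutant and 11.1 in wildtype spinal motor neurons, and 10.1 and 7.2 in facial ones, against 15.1 and 14.3 in tissue. The glial sums lay below tissue as did the genes reported lower below, and the part of glia in those differences was not tested. The brightest Sod1 probe set lay above the wildtype arrays on every mutant array of each kind, at 16.8 to 16.9 against 16.4 to 16.5 in spinal motor neurons, although the probe set 1435304_at of the same gene lay lower on the mutant than on the wildtype arrays of each kind. The actin controls' ratio of 3' over 5' signal, which shows how far the amplified RNA reaches towards the 5' end, was 30.7 ± 7.37 in mutant and 46.5 ± 9.06 in wildtype spinal motor neurons. It was 39.8 ± 17.0 in mutant and 67.6 ± 7.44 in wildtype facial motor neurons, and 1.64 ± 0.12 in mutant and 1.63 ± 0.06 in wildtype tissue.

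All 3 buffers were higher in wildtype spinal motor neurons than in wildtype facial motor neurons. Calb2 had the clearest difference, at 19.1-fold in wildtype and 77.2-fold in mutant samples, and in mutant samples it was the buffer whose difference passed the test. In tissue all 3 buffers were bright and nearly constant from array to array. Against that tissue, facial motor neurons were far lower in every buffer in both genotypes, whereas in spinal motor neurons Calb2 was at or above the tissue level.

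Calb2, measured by probe set 1451129_at, had 15.86, 15.88 and 15.93 in mutant spinal motor neurons, against 10.30, 9.44 and 9.11 in mutant facial motor neurons. In wildtype samples it had 14.89, 15.82 and 15.10 in spinal motor neurons, against 11.55, 10.25 and 11.25 in facial motor neurons. The spinal arrays were all above the facial arrays in both genotypes. Spinal minus facial, the difference was +6.27 in mutant samples (SE 0.24, adjusted p = 1.4e-08 from limma) and +4.25 in wildtype samples (SE 0.32, adjusted p = 9.07e-05). In mutant samples this was the smallest adjusted p of all 45037 probe sets.

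Calb1, measured by probe set 1417504_at, varied widely among spinal motor neuron samples. It had 9.86, 14.16 and 5.53 in mutant spinal motor neurons, against 7.99, 7.98 and 7.87 in mutant facial motor neurons, so that 1 mutant spinal array was as bright as tissue and another was below background. In wildtype samples it had 11.99, 13.50 and 10.12 in spinal motor neurons, against 8.29, 7.85 and 6.93 in facial motor neurons. The wildtype groups did not overlap and the mutant groups did. The difference was +1.91 in mutant samples (SE 1.41, adjusted p = 0.592 from limma) and +4.18 in wildtype samples (SE 0.72, adjusted p = 0.0175). All 6 facial arrays were below the background level for this gene. The other 3 Calb1 probe sets averaged below background in every group and add little measurement of the gene. On mutant spinal replicate 2, 1456934_at had 9.78 and 1448738_at had 9.96, while 1458836_at had 4.52.

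Pvalb, measured by probe set 1417653_at, had 14.25, 15.26 and 12.16 in mutant spinal motor neurons, against 12.06, 12.26 and 10.22 in mutant facial motor neurons. It had 14.19, 12.69 and 13.79 in wildtype spinal motor neurons, against 11.19, 10.08 and 10.74 in wildtype facial motor neurons. The dimmest mutant spinal array reached into the range of the mutant facial arrays, while the wildtype groups were apart. The difference was +2.38 in mutant samples (SE 0.62, adjusted p = 0.07 from limma) and +2.88 in wildtype samples (SE 0.37, adjusted p = 0.00393), the last being 7.38-fold. Without mutant spinal replicate 3 the mutant difference was +3.24, with an adjusted p of 0.0147. With the replicate number as a block the mutant difference stayed at +2.38, with an adjusted p of 0.000106. The labels do not tie replicate numbers to a shared animal or batch, so this block may not be a real one. In wildtype samples the Pvalb difference was +2.77 without spinal replicate 3 (adjusted p = 0.0546), and that of Calb1 was +4.12 without spinal replicate 1 (adjusted p = 0.0664) and +3.80 without facial replicate 3 (adjusted p = 0.0876).

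Over the 10 members, 1 was called higher and 0 lower in mutant spinal against mutant facial motor neurons, where 0.995% of all probe sets were called higher and 0.773% lower. In wildtype samples 3 of 10 were called higher and 0 lower, where 0.626% of all probe sets were called higher and 0.631% lower. Members were counted by the brightest probe set of a gene, and these shares cover all probe sets, dim ones included. Among 10916 brightest probe sets above the 40th percentile of genes, 446 were called higher and 351 lower in mutant samples. In wildtype samples 233 of these were called higher and 199 lower. The median difference of the 10 members was +0.41 in mutant and +0.73 in wildtype samples, beside -0.01 and +0.01 over all probe sets. With the actin ratio as a covariate the wildtype differences of Calb1, Calb2 and Pvalb were +4.86, +3.77 and +3.87, with adjusted p-values of 0.197, 0.0591 and 0.0698, and 8 probe sets of the whole array were called in place of 566. Without limma's mean-variance trend 10 probe sets of the whole array were called in wildtype samples, none of them a member, and the adjusted p-values of the 3 buffers were 0.18, 0.0675 and 0.137.

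**Figure D1:**
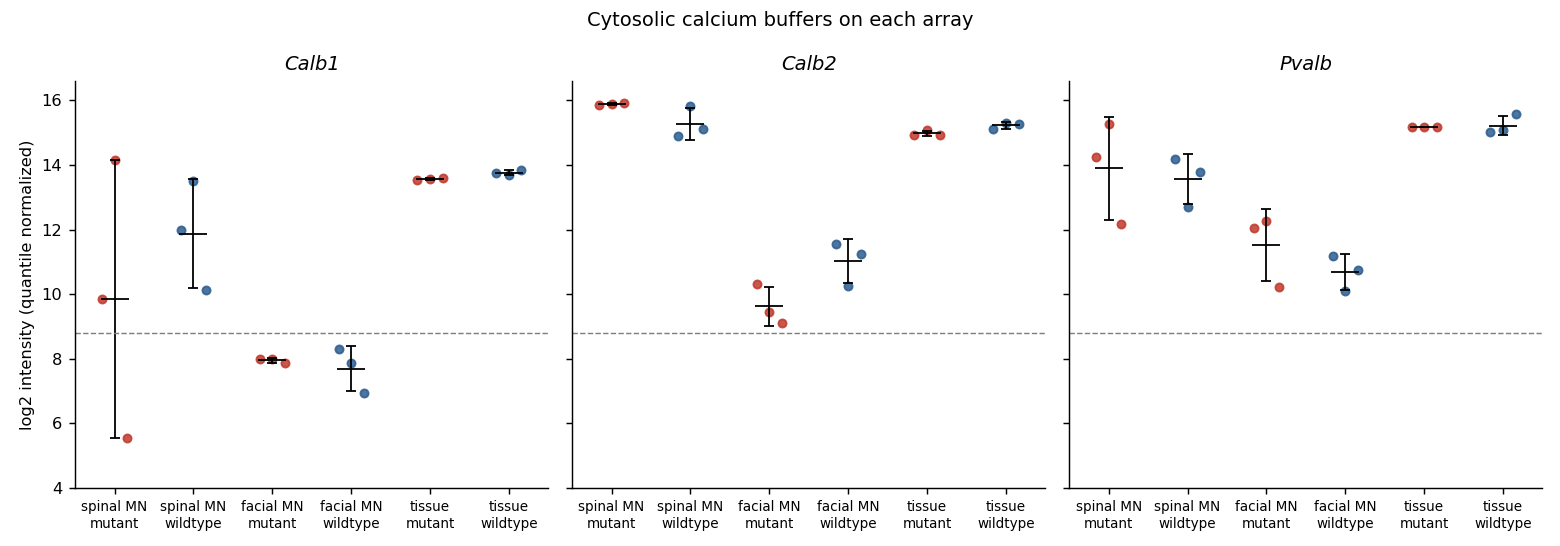
Level of Calb1, Calb2 and Pvalb (brightest probe set, log2 intensity on the vertical axis) on each of 3 arrays in the 6 groups; red points are SOD1 mutant and blue points wildtype arrays, black bars are the mean and SD, and the dashed line is the background level of 8.79. Calb2 is tightly grouped near 15.89 in mutant spinal motor neurons and lies between 9.11 and 11.55 in facial motor neurons, while Calb1 spans 5.53 to 14.16 in mutant spinal motor neurons.

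Markers of other neurons moved with Calb1 and Pvalb among the mutant spinal motor neuron arrays. The summed level of 9 markers of inhibitory and excitatory neurons was 15.06, 16.14 and 12.05 on mutant spinal replicates 1, 2 and 3, which is the order of Calb1 and of Pvalb on these arrays. Gad1, which makes the transmitter GABA, had 10.61, 12.71 and 7.63 on the same 3 arrays, and the glycine transporter Slc6a5 had 13.49, 14.52 and 9.86. Calb2 stayed between 15.86 and 15.93 on them. On the wildtype spinal arrays the summed markers were 13.78, 14.24 and 13.37, in the order of Calb1 but not of Pvalb, and on the facial arrays they were 12.4 to 13.3. In tissue they were 17.1 to 17.2. The part of these cells in the levels of the buffers was not tested, and fewer cells of a type and less RNA per cell cannot be told apart in such samples.

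Against tissue, all 3 buffers were lower in facial motor neurons. In tissue Calb1 had 13.54, 13.57 and 13.58 in mutants and 13.75, 13.69 and 13.84 in wildtype samples. Facial motor neurons were lower by a log2 difference of -5.62 in mutants (SE 0.18, adjusted p = 5.82e-08 from limma) and -6.07 in wildtype samples (SE 0.32, adjusted p = 8.9e-07). Since the facial level was below background, these sizes do not measure how far the gene itself was lower. Calb2 had 14.93, 15.07 and 14.93 in mutant and 15.11, 15.31 and 15.28 in wildtype tissue. In facial motor neurons it was 41.1-fold lower in mutants (log2 difference -5.36, SE 0.26) and 18.6-fold lower in wildtype samples (-4.21, SE 0.28). Pvalb had 15.16, 15.17 and 15.17 in mutant and 15.01, 15.08 and 15.57 in wildtype tissue, and facial motor neurons were 12.6-fold lower in mutants (-3.65, SE 0.43) and 23.4-fold lower in wildtype samples (-4.55, SE 0.26). All 6 differences passed the test, and no facial array reached any tissue array. The tissue came from the spinal cord and not from around the facial nucleus, so these comparisons cross both cell type and region.

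In spinal motor neurons the buffers differed among themselves in their relation to tissue. Calb2 was 1.88-fold higher than tissue in mutants (log2 difference +0.91, SE 0.08, adjusted p = 1.09e-05 from limma), and all 3 mutant spinal arrays were above all 3 mutant tissue arrays. In wildtype samples the Calb2 difference was +0.04 (SE 0.22, interval -0.45 to 0.53, adjusted p = 0.915), with overlapping groups. Pvalb was 3.17-fold lower than tissue in wildtype samples (-1.66, SE 0.34, adjusted p = 0.00444), but at a common median of the arrays the difference was -0.40 with an adjusted p of 0.427. In mutants its difference of -1.28 (SE 0.58) had an adjusted p of 0.115. Calb1 missed the threshold in both genotypes, at -3.71 in mutants (SE 1.57, adjusted p = 0.0924) and -1.89 in wildtype samples (SE 0.65, adjusted p = 0.0523). Without mutant spinal replicate 2, the array with the highest markers of other neurons, the Calb1 difference in mutants was -5.87 with an adjusted p of 0.00178 and that of Pvalb was -1.96 with an adjusted p of 0.0121. Without wildtype spinal replicate 2 the Calb1 difference in wildtype samples was -2.70 with an adjusted p of 0.00319.

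From high to low, Calb2 stood at 15.89 ± 0.03 in mutant spinal motor neurons, 15.27 ± 0.49 in wildtype spinal motor neurons, 15.23 ± 0.11 in wildtype tissue, 14.98 ± 0.08 in mutant tissue, 11.02 ± 0.68 in wildtype facial motor neurons and 9.62 ± 0.61 in mutant facial motor neurons. Arrays of wildtype spinal motor neurons overlapped both tissue groups, and the 2 facial groups overlapped each other. For Pvalb the order was wildtype tissue at 15.22 ± 0.30, mutant tissue at 15.17, mutant spinal motor neurons at 13.89 ± 1.58, wildtype spinal motor neurons at 13.56 ± 0.78, mutant facial motor neurons at 11.51 ± 1.12 and wildtype facial motor neurons at 10.67 ± 0.56. Each of these neighbours overlapped except wildtype spinal and mutant facial motor neurons. For Calb1 the order was wildtype tissue at 13.76 ± 0.08, mutant tissue at 13.56 ± 0.02, wildtype spinal motor neurons at 11.87 ± 1.69, mutant spinal motor neurons at 9.85 ± 4.31, mutant facial motor neurons at 7.94 ± 0.07 and wildtype facial motor neurons at 7.69 ± 0.69. Both tissue groups lay above all other arrays but for mutant spinal replicate 2 and were apart from each other, and the motor neuron neighbours overlapped.

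The plasma membrane pumps were bright in every group, apart from Atp2b4. These ATP-driven pumps have a high affinity for calcium and set its resting level in the cytosol; Atp2b1 is made in most cells, while Atp2b2 and Atp2b3 are characteristic of neurons. By the brightest probe sets, Atp2b1, Atp2b2 and Atp2b3 were all higher in facial motor neurons than in tissue in both genotypes and in mutant spinal motor neurons than in mutant tissue. In wildtype spinal motor neurons Atp2b3 passed the test and Atp2b1 and Atp2b2 did not, although at a common median of the arrays they did, at +1.31 (adjusted p = 0.0146) and +1.51 (adjusted p = 0.00125).

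Atp2b1, measured by probe set 1428937_at, had 14.34, 14.68 and 14.55 in mutant spinal motor neurons and 14.68, 14.54 and 15.28 in mutant facial motor neurons, against 13.69, 13.41 and 13.49 in mutant tissue. In wildtype samples it had 13.01, 14.43 and 14.05 in spinal and 14.65, 14.52 and 14.56 in facial motor neurons, against 13.51, 13.41 and 13.53 in tissue. The single array of either motor neuron kind that fell to or below the tissue level was wildtype spinal replicate 1. Over mutant tissue the difference was 1.99-fold in spinal motor neurons (log2 +0.99, SE 0.12, adjusted p = 8.05e-05 from limma) and 2.46-fold in facial ones (+1.30, SE 0.18, adjusted p = 0.00034). Over wildtype tissue it was +0.35 in spinal motor neurons (SE 0.31, adjusted p = 0.434) and 2.13-fold in facial ones (+1.09, SE 0.09, adjusted p = 1.02e-05). Without wildtype spinal replicate 1 the wildtype spinal difference was +0.76 with an adjusted p of 0.00845.

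Atp2b2, measured by probe set 1433888_at, had 15.51, 15.56 and 15.44 in mutant spinal and 15.25, 14.88 and 15.40 in mutant facial motor neurons, against 14.54, 14.56 and 14.64 in mutant tissue. In wildtype samples it had 14.55, 15.72 and 14.70 in spinal and 15.10, 15.07 and 14.98 in facial motor neurons, against 14.70, 14.74 and 14.80 in tissue. All mutant motor neuron arrays and the wildtype facial ones were above their tissue, and the wildtype spinal arrays lay on both sides of theirs. The differences from tissue were +0.92 in mutant spinal (SE 0.08), +0.59 in mutant facial (SE 0.14), +0.25 in wildtype spinal (SE 0.27) and +0.31 in wildtype facial motor neurons (SE 0.07), and all but the wildtype spinal one passed the test. Without a mean-variance trend neither facial difference of Atp2b2 passed, with adjusted p-values of 0.0867 in mutants and 0.195 in wildtype samples.

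Atp2b3, measured by probe set 1445679_at, had 14.99, 15.20 and 15.16 in mutant spinal and 15.23, 14.83 and 15.37 in mutant facial motor neurons, against 14.21, 14.17 and 14.27 in mutant tissue. In wildtype samples it had 14.64, 15.22 and 14.65 in spinal and 14.93, 14.96 and 14.96 in facial motor neurons, against 14.32, 14.24 and 14.31 in tissue. By the brightest probe sets it was the pump whose motor neuron arrays were all above all tissue arrays of their genotype in each of the 4 comparisons. The Atp2b1 probe set 1428936_at, which is not the brightest of its gene, showed the same. Over tissue Atp2b3 was 1.87-fold higher in mutant spinal, 1.90-fold in mutant facial, 1.46-fold in wildtype spinal and 1.58-fold in wildtype facial motor neurons, with adjusted p-values from limma of 2.68e-05, 0.000612, 0.0408 and 9.4e-05. The wildtype spinal difference lost its call without any 1 of the 3 wildtype tissue arrays, at +0.56, +0.52 and +0.56 with adjusted p-values of 0.101, 0.135 and 0.109. Between spinal and facial motor neurons the brightest probe sets of Atp2b1, Atp2b2 and Atp2b3 did not pass the test in either genotype, with intervals that reached no further than -1.36 and +0.63.

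Atp2b4 was close to background on all 18 arrays, from 4.37 to 8.76. It was dimmer in motor neurons than in tissue, and the difference was called in mutant spinal, mutant facial and wildtype facial motor neurons at -2.51, -2.46 and -2.37 (adjusted p-values from limma of 0.0186, 0.0314 and 0.00944). At such levels these differences describe a probe set that barely measured its gene.

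Among the exchangers, which remove calcium quickly after activity in exchange for sodium, Slc8a3 was higher in spinal motor neurons than in tissue and Slc8a1 was lower in facial motor neurons than in tissue. Slc8a3, measured by probe set 1440962_at, had 14.28, 14.28 and 14.52 in mutant spinal motor neurons, against 12.99, 12.97 and 13.19 in mutant tissue. It had 13.99, 14.83 and 14.13 in wildtype spinal motor neurons, against 13.09, 12.95 and 13.19 in wildtype tissue. The groups were apart in both genotypes, and the difference was 2.48-fold in mutants (log2 +1.31, SE 0.11, adjusted p = 7.27e-06 from limma) and 2.35-fold in wildtype samples (+1.23, SE 0.22, adjusted p = 0.00205). It kept its direction and passed the test in all 15 alternatives in each genotype. In facial motor neurons Slc8a3 had 14.50, 12.97 and 13.99 in mutants and 13.07, 13.89 and 13.75 in wildtype samples, which overlapped tissue in both. Their differences from tissue were +0.77 in mutants (SE 0.31, adjusted p = 0.0772) and +0.49 in wildtype samples (SE 0.20, adjusted p = 0.0777). They were +1.19 without mutant facial replicate 2 (adjusted p = 0.000566) and +0.74 without wildtype facial replicate 1 (adjusted p = 0.000629).

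Slc8a1, measured by probe set 1440201_at, had 12.20, 12.14 and 12.50 in mutant facial motor neurons, against 13.19, 12.84 and 12.83 in mutant tissue. It had 12.31, 11.89 and 12.15 in wildtype facial motor neurons, against 13.11, 12.90 and 12.77 in wildtype tissue. Facial arrays were below tissue arrays in both genotypes, by 1.59-fold in mutants (log2 -0.67, SE 0.16, adjusted p = 0.0076 from limma) and 1.75-fold in wildtype samples (-0.81, SE 0.15, adjusted p = 0.00196). This direction depended on the scaling: with the deposited values set to 1 common median the difference was +0.18 in mutants (adjusted p = 0.441) and -0.04 in wildtype samples (adjusted p = 0.856). In spinal motor neurons Slc8a1 had 12.62, 12.84 and 12.85 in mutants and 13.27, 12.73 and 12.84 in wildtype samples, which overlapped tissue, with differences of -0.18 (adjusted p = 0.333) and +0.02 (adjusted p = 0.946). Under the common median these were +0.63 (adjusted p = 0.00369) and +0.84 (adjusted p = 0.011). Slc8a2, an exchanger of brain neurons, was below background on every array, from 4.47 to 8.13 by its brighter probe set, and the single call was a difference of -2.91 in mutant spinal motor neurons (adjusted p = 0.00273).

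**Figure D2:**
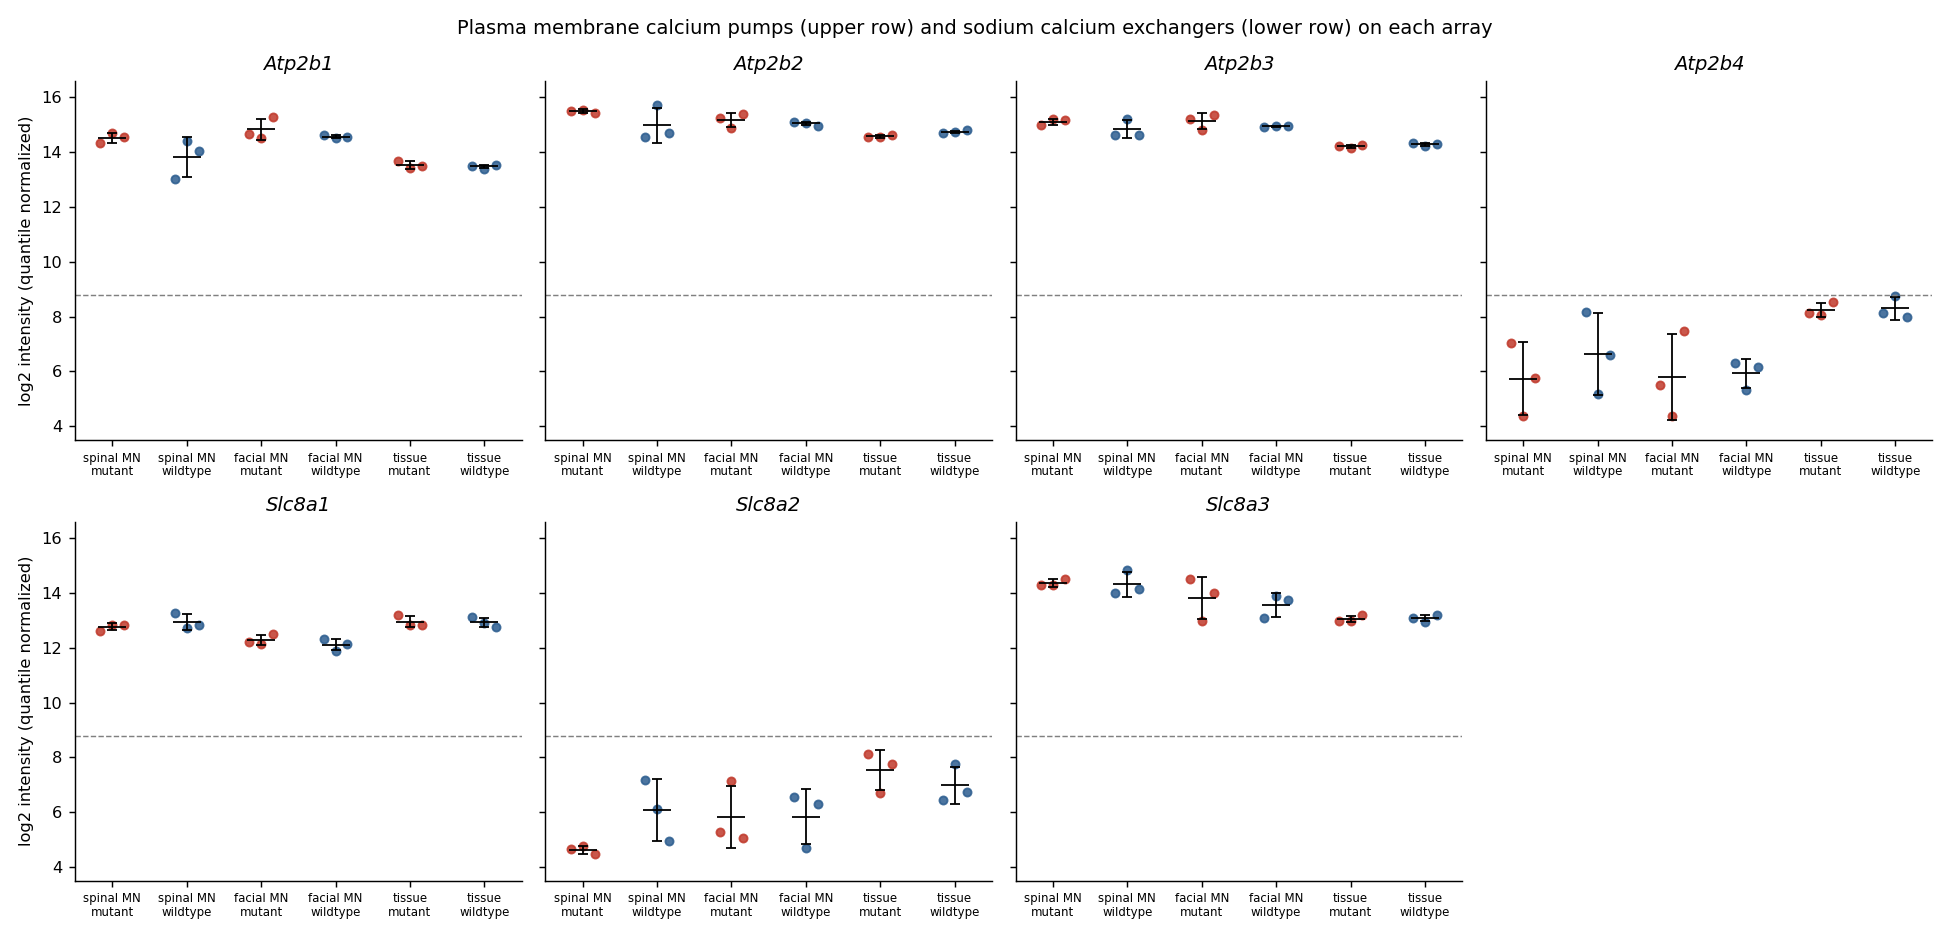
Level of the 4 pumps (upper row) and 3 exchangers (lower row) by their brightest probe sets, as log2 intensity on each of 3 arrays in the 6 groups; red points are SOD1 mutant and blue points wildtype arrays, black bars are the mean and SD, and the dashed line is the background level of 8.79. Atp2b1, Atp2b2, Atp2b3, Slc8a1 and Slc8a3 lie far above the line in every group, and Atp2b4 and Slc8a2 lie below it on all 18 arrays.

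Counted over the 10 members, mutant spinal motor neurons had 5 called higher than tissue and 2 lower, where 19.1% of all probe sets were called higher and 17.5% lower. Wildtype spinal motor neurons had 2 called higher and 1 lower, where 15.5% were called higher and 14.8% lower. Mutant facial motor neurons had 3 called higher and 5 lower, where 19.3% were called higher and 17.1% lower. Wildtype facial motor neurons also had 3 called higher and 5 lower, where 19.8% were called higher and 17.9% lower. The median difference of the 10 members was +0.36 in mutant spinal, +0.03 in wildtype spinal, -1.19 in mutant facial and -0.98 in wildtype facial motor neurons, against +0.14, +0.14, +0.16 and +0.15 over all probe sets. The members were counted by the brightest probe set of a gene, and these shares cover all probe sets, dim ones included. Among brightest probe sets above the 40th percentile of genes, 10916 were tested. Of these, 4586 were called higher and 2929 lower in mutant spinal and 3880 and 2524 in wildtype spinal motor neurons. In facial motor neurons 4427 and 2698 were called in mutant and 4510 and 2941 in wildtype samples. With 14.8% to 19.8% of the array called in each direction, a call by itself sets a member little apart.

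Comparisons of motor neurons with tissue also depended on how the arrays were scaled. With the deposited values set to 1 common median the median difference over all probe sets was +0.34 to +0.40, and with the deposited scaling kept it was -0.41 to -0.32. The share of calls that were higher was 51.2% to 52.9% after quantile normalization, 66.2% to 68.3% at a common median and 30.3% to 33.1% with the deposited scaling. For wildtype spinal motor neurons the split was 6974 higher and 6658 lower, against 9976 and 4890 at a common median and 4580 and 10517 with the deposited scaling. Relative to the median of all probe sets, Slc8a3 stood at +1.09 in wildtype spinal motor neurons after quantile normalization, +1.78 at a common median and +1.67 with the deposited scaling. Atp2b3 stood at +0.40, +1.35 and +1.24 in the same order, and Pvalb at -1.81, -0.81 and -0.92. Calb2 in wildtype spinal motor neurons stood at -0.10 after quantile normalization but at +0.99 and +0.87 under the other scalings, so its place relative to tissue was not settled in wildtype samples. In wildtype facial motor neurons Calb1, Calb2 and Pvalb stood between -6.22 and -3.55 under all 3 scalings.

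**Figure D3:**
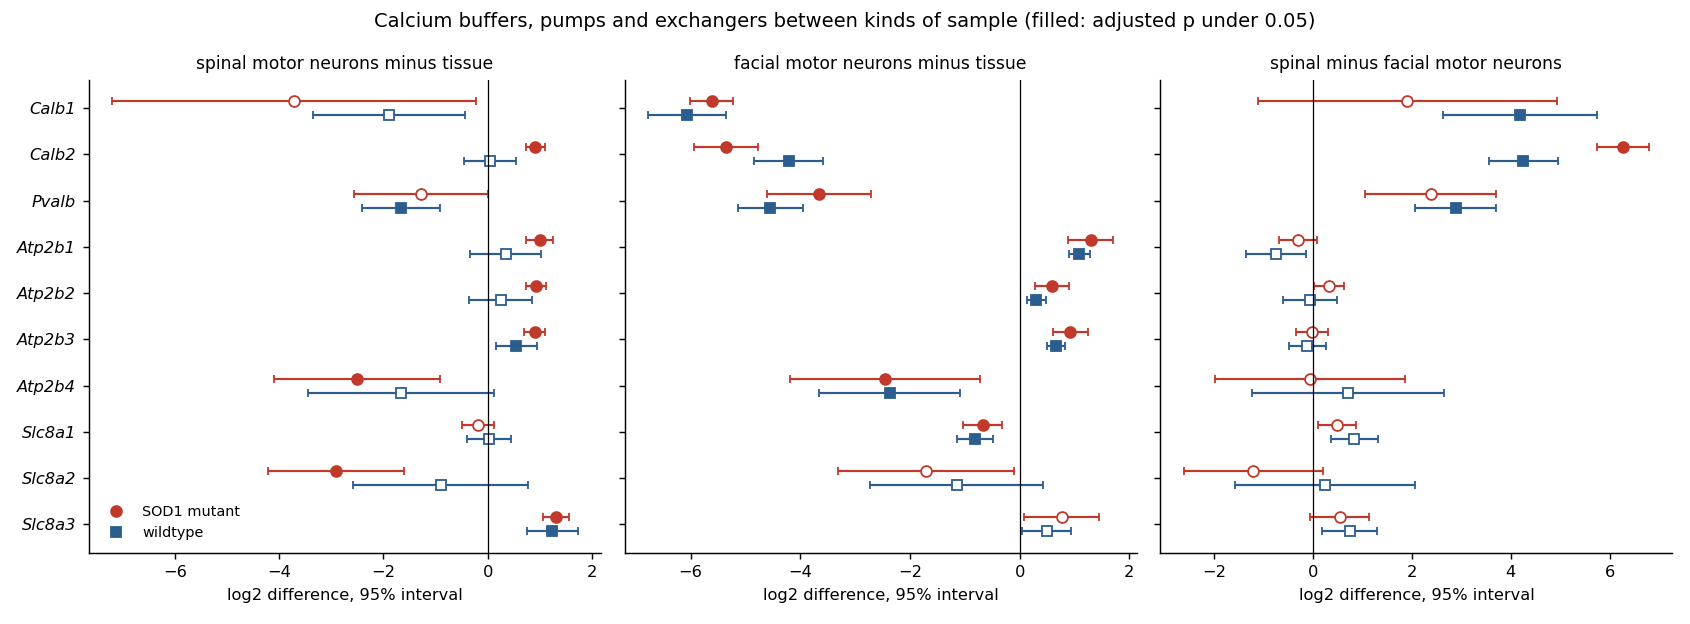
Log2 differences of the 10 members (brightest probe sets) with 95% confidence intervals, for spinal motor neurons minus tissue, facial motor neurons minus tissue and spinal minus facial motor neurons; red circles are SOD1 mutant and blue squares wildtype samples, filled where the adjusted p was under 0.05. The buffers range from -6.07 for Calb1 in wildtype facial motor neurons minus tissue to +6.27 for Calb2 in mutant spinal minus facial motor neurons, while Atp2b1, Atp2b2 and Atp2b3 lie between -0.75 and +1.30 in all 3 panels.

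Probe sets of the same gene gave opposite answers between motor neurons and tissue for Atp2b2 and Slc8a3. For Atp2b2 the probe set 1420403_at was lower in all 4 comparisons, at -1.68 in mutant spinal, -1.77 in mutant facial, -1.87 in wildtype spinal and -2.22 in wildtype facial motor neurons, while the brightest was higher. The third Atp2b2 probe set, 1420402_at, was called in none of them. It averaged 12.61 in mutant spinal and 11.90 in mutant facial motor neurons, against 12.46 in mutant tissue. In wildtype samples it averaged 12.24 in spinal and 11.76 in facial motor neurons, against 12.13 in tissue. Some alternatives called it lower in facial motor neurons, and a common median called it higher in mutant spinal ones. For Slc8a3 the probe set 1450311_at was called lower at -1.73 in mutant spinal (adjusted p = 0.014), -2.25 in wildtype spinal (0.0443) and -2.18 in wildtype facial motor neurons (0.00381), although its motor neuron levels were below background. The mutant spinal call was lost without any 1 mutant tissue array (adjusted p-values of 0.0515 to 0.0788). The wildtype spinal call was lost without any 1 wildtype tissue array (0.0966 to 0.151), without wildtype spinal replicate 3 (0.0502), without the trend (0.0783) and at a pseudocount of 1 (0.0555). The Slc8a1 probe set 1437675_at was called lower in all 4 comparisons, where the brightest was called lower in the facial ones, from -0.91 in mutant spinal to -1.90 in wildtype spinal motor neurons. The probe sets 1428936_at of Atp2b1 and 1442645_at of Atp2b3 agreed in sign with the brightest. In mutant spinal, mutant facial, wildtype spinal and wildtype facial motor neurons 1428936_at was at +1.84, +2.57, +0.71 and +2.80. In the same order 1442645_at was at +1.65, +1.29, +1.43 and +1.77. The third Atp2b1 probe set, 1452969_at, was called in none of the 4 comparisons. It averaged 12.63 in mutant spinal and 12.60 in mutant facial motor neurons, against 12.47 in mutant tissue. In wildtype samples it averaged 12.34 in spinal and 12.83 in facial motor neurons, against 12.60 in tissue. At a common median 1452969_at was called higher in all but wildtype spinal motor neurons. The actin ratio was at least 25.3 on motor neuron arrays and at most 1.78 on tissue arrays. Its part in these differences between probe sets was not tested, and the positions of the probe sets in their transcripts were not used here.

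**Figure D4:**
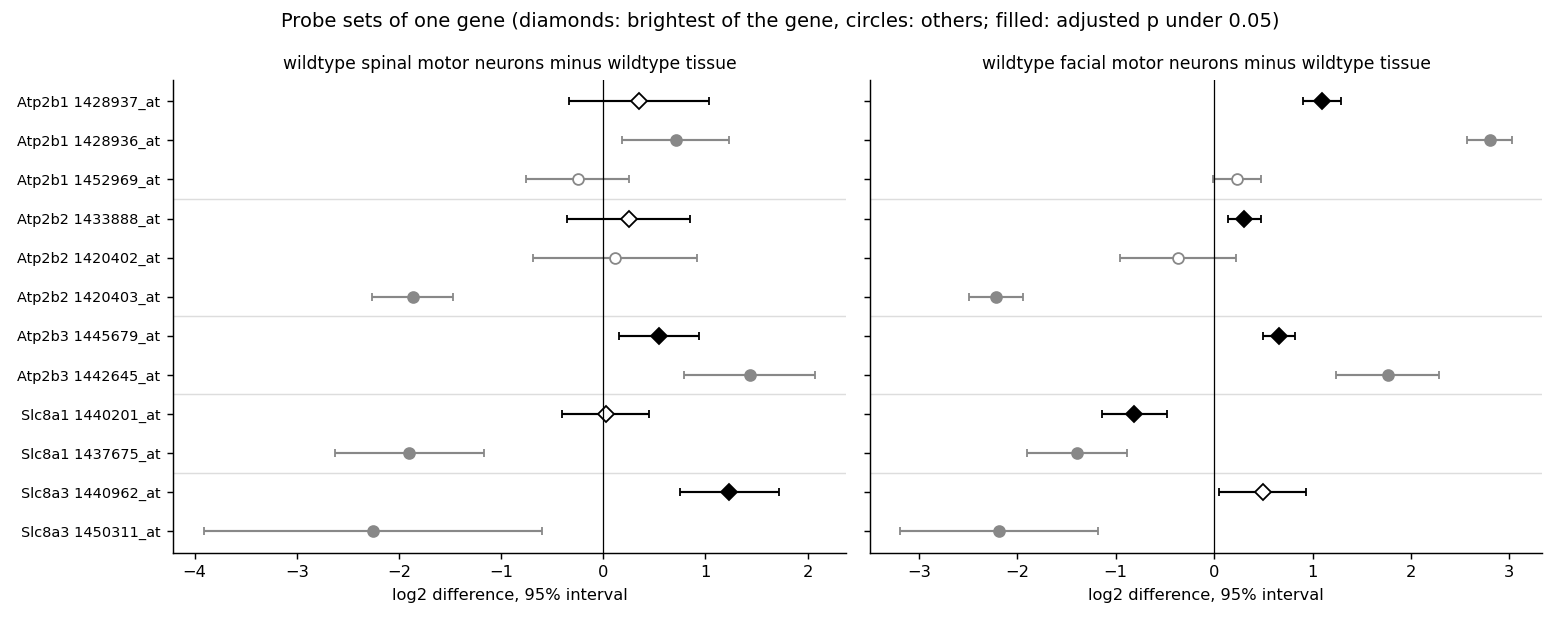
Log2 differences with 95% confidence intervals for each probe set of Atp2b1, Atp2b2, Atp2b3, Slc8a1 and Slc8a3 whose mean was above background in at least 1 group, in wildtype spinal (left) and wildtype facial motor neurons (right) minus wildtype tissue; black diamonds are the brightest probe set of a gene, grey circles the others, filled where the adjusted p was under 0.05. The Atp2b2 probe sets spread from -2.22 to +0.31 in facial motor neurons, and both Atp2b3 probe sets lie above 0.

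Of the 3 Atp2b1 probe sets, 1428936_at was called lower in spinal than in facial motor neurons, and the others were not called. It had 14.00, 14.32 and 13.71 in mutant spinal motor neurons, against 14.75, 14.78 and 14.69 in mutant facial motor neurons. It had 12.56, 13.24 and 12.37 in wildtype spinal motor neurons, against 14.86, 14.82 and 14.75 in wildtype facial motor neurons. The spinal arrays were below the facial ones in both genotypes, by 1.66-fold in mutants (log2 -0.73, SE 0.16, adjusted p = 0.032 from limma) and 4.26-fold in wildtype samples (-2.09, SE 0.21, adjusted p = 0.000873). The brightest Atp2b1 probe set went the same way without passing, at -0.31 in mutants (SE 0.18, adjusted p = 0.477) and -0.75 in wildtype samples (SE 0.28, adjusted p = 0.23), and the third, 1452969_at, was at +0.03 and -0.48. The mutant difference of 1428936_at kept its sign in all 15 alternatives and passed in 8. It lost the call without any 1 mutant array other than spinal replicate 2, at -0.75 to -0.58 with adjusted p-values of 0.0736 to 0.143. The wildtype call was lost without the mean-variance trend (adjusted p = 0.107) and once the actin ratio was in the model (-2.28, adjusted p = 0.0716).

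Promoter sequences are shown for 2 members with contrasting patterns, Slc8a3, which was higher in spinal motor neurons than in tissue, and Pvalb, which was lower in facial motor neurons than in tissue. They are the 250 bases before an annotated start, 5′ to 3′ on the gene's strand, from RefSeq on build GRCm38.p6, whose table held 7 of the 10 members. Capitals mark the letters TGACG, the short form of the cyclic AMP response element, and where there are no capitals none of the searched motifs was found. The Slc8a3 window is chr12:81333181-81333430 on the minus strand, and the Pvalb window is chr15:78206401-78206650 on the minus strand, the first of 2 in the table.
Slc8a3: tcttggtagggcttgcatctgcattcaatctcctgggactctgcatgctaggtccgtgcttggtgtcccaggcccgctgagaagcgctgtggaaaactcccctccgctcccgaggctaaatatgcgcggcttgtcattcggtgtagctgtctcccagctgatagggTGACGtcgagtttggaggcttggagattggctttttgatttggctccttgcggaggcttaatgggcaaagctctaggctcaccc
Pvalb: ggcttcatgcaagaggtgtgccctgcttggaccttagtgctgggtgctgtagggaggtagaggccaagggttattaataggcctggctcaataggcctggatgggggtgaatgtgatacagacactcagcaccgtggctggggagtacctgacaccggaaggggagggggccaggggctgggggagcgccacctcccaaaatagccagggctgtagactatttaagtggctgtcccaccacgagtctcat
The motifs searched on both strands were TGACG, the full element TGACGTCA that contains it, the E-box CACGTG and the TATA box TATAAA. Among 32851 windows of this length TGACG was present in 17.8%, TGACGTCA in 1.55%, CACGTG in 6.02% and TATAAA in 12.4%. In the windows of the 7 members the only match was TGACG in Slc8a3, 84 bases before the start on the gene's own strand. No promoter of Calb1, Calb2 or Atp2b3 was in the table.

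Between genotypes no member passed the test in any kind of sample. Groups of 3 arrays that lie apart are no test, and the share of all probe sets apart between genotypes was not counted. In spinal motor neurons 0 of 10 were called by limma and 2 had an unadjusted p under 0.05, where 0.0377% of all probe sets were called. In facial motor neurons 0 of 10 were called and 1 had an unadjusted p under 0.05, where 0% of all probe sets were called. In tissue 0 of 10 were called and 3 had an unadjusted p under 0.05, where 0.0777% were called. Over both motor neuron sites together 0 of 10 were called and 1 had an unadjusted p under 0.05, where 0.138% were called. Of all 45037 probe sets, 3199 in spinal motor neurons and 5571 in facial motor neurons had an unadjusted p under 0.05 from limma. In tissue 3133 did, and over both motor neuron sites 4983 did. The median difference of the 10 members, mutant minus wildtype, was +0.16 in spinal motor neurons, +0.18 in facial motor neurons and -0.05 in tissue, against -0.01, +0.01 and -0.01 over all probe sets.

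Calb2 differed between genotypes in opposite directions at the 2 motor neuron sites, without passing the test at either. In spinal motor neurons the 3 mutant arrays, at 15.86 to 15.93, were all above the wildtype arrays, at 14.89 to 15.82, with a difference of +0.62 (SE 0.20, unadjusted p = 0.00954, adjusted p = 0.598 from limma). In facial motor neurons mutants had 10.30, 9.44 and 9.11, against 11.55, 10.25 and 11.25 in wildtype samples, with a difference of -1.40 (SE 0.41, adjusted p = 0.211) and overlapping groups. The difference between these genotype effects, spinal minus facial, was +2.02 (SE 0.45, unadjusted p = 0.000261, adjusted p = 0.231). In tissue mutants were lower than wildtype samples on all 3 arrays, by -0.25 (SE 0.08, adjusted p = 0.531). With all 18 arrays in a joint fit the adjusted p was 0.0178 for the facial difference and 0.0334 for the difference between sites. Without wildtype spinal replicate 2 the spinal difference was +0.89 with an adjusted p of 0.00896, in a fit that called 618 probe sets of the whole array in place of 17.

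Of the pumps above background, Atp2b1 had the largest difference between genotypes in spinal motor neurons. Its probe set 1428936_at had 14.00, 14.32 and 13.71 in mutants, against 12.56, 13.24 and 12.37 in wildtype samples, so the groups did not overlap. The difference was +1.29 (SE 0.24, interval 0.77 to 1.81, unadjusted p = 0.000118, adjusted p = 0.143 from limma), and the brightest probe set was at +0.70 (SE 0.28, adjusted p = 0.675). In facial motor neurons these probe sets were at -0.07 (interval -0.31 to 0.16) and +0.26 (interval -0.11 to 0.63). With all 18 arrays in a joint fit the spinal difference of 1428936_at had an adjusted p of 0.00128, with the replicate number as a block 0.0145, and without wildtype spinal replicate 2 it was +1.55 with an adjusted p of 0.00788. With the actin ratio as a covariate 0 probe sets of the whole array were called. That ratio was 25.3 to 39.1 on mutant and 40.9 to 56.9 on wildtype spinal arrays. The third Atp2b1 probe set, 1452969_at, averaged 12.63 in mutant and 12.34 in wildtype spinal motor neurons, with overlapping groups. Atp2b2 was at +0.51 in spinal motor neurons (SE 0.24, interval -0.02 to 1.04, adjusted p = 0.704), and +0.88 with an adjusted p of 0.00979 without wildtype spinal replicate 2. That array was the brightest of the 3 wildtype spinal arrays for Atp2b1 (14.43 by the brightest probe set and 13.24 by 1428936_at), and likewise for Atp2b2, Atp2b3, Calb1, Calb2 and Slc8a3. The summed level of 6 microglia markers also differed between these groups, at 15.2 to 15.5 on mutant and 12.3 to 14.2 on wildtype spinal arrays, and its part in the genotype differences was not tested.

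The remaining genotype differences were small or wide. Calb1 was at -2.02 in spinal motor neurons, with an interval from -5.25 to 1.21 that is set by the spread of the 3 mutant arrays. Pvalb was at +0.33 in spinal and +0.84 in facial motor neurons (SE 0.58 and 0.47, adjusted p = 0.91 and 0.501 from limma). Atp2b3 was at +0.28 and +0.19, Slc8a1 at -0.18 and +0.17, and Slc8a3 at +0.05 and +0.25 in spinal and facial motor neurons. The Slc8a1 probe set 1437675_at went the other way in spinal motor neurons, at 10.95 in mutant and 10.06 in wildtype samples, and was not called. In facial motor neurons it averaged 10.85 in mutant and 10.57 in wildtype samples. In tissue, where the spread was smallest, Calb1 was at -0.20 (SE 0.08, adjusted p = 0.657) and Atp2b2 at -0.16 (SE 0.07, adjusted p = 0.703). The intervals of the 8 members above background in tissue lay within -0.44 and 0.31 there. For the genotype effect compared between spinal motor neurons and tissue, between facial motor neurons and tissue, and between both motor neuron sites, 0 of 10 members were called by limma and 2, 1 and 1 had an unadjusted p under 0.05, where 0.00666%, 0.0333% and 0.00222% of all probe sets were called. Of all 45037 probe sets, 3130, 5135 and 3514 had an unadjusted p under 0.05 from limma, in the same order.

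**Figure D5:**
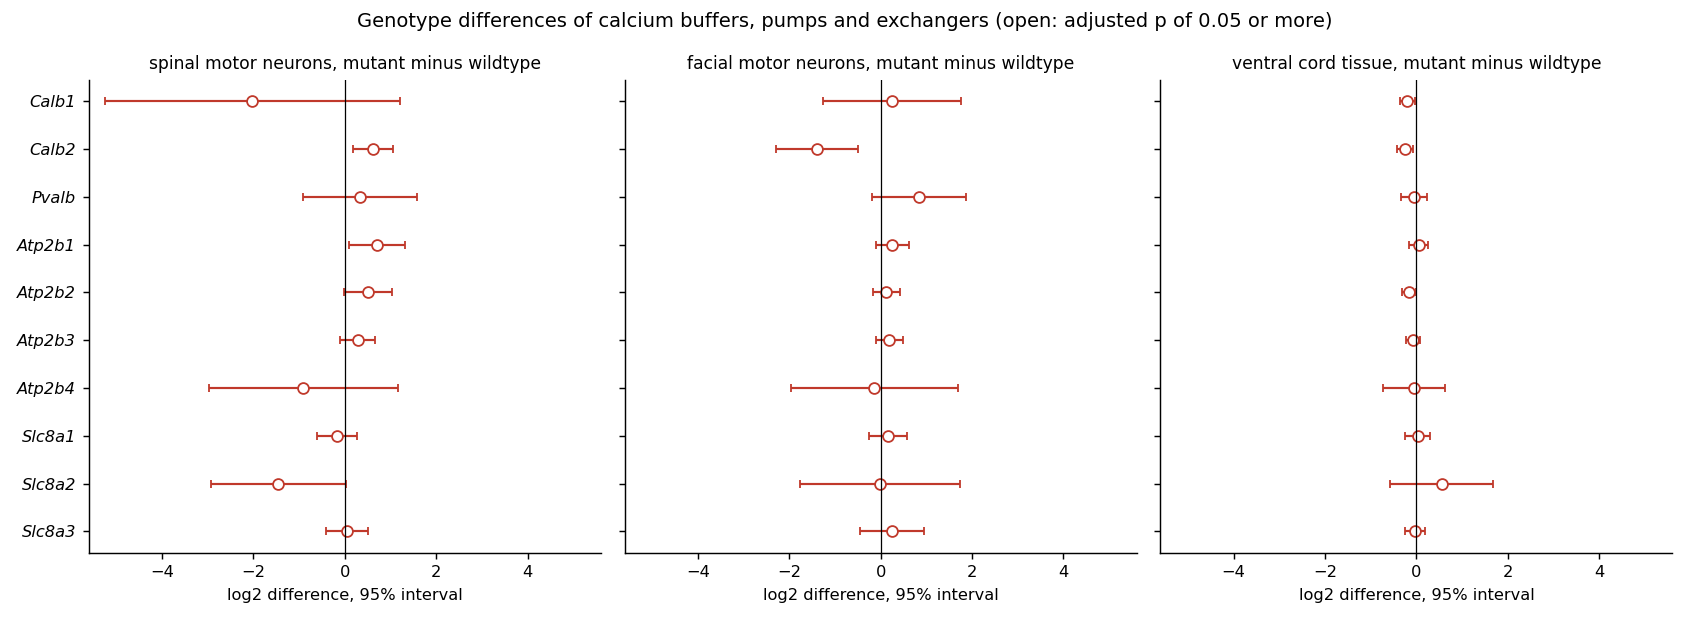
Log2 differences, SOD1 mutant minus wildtype, of the 10 members (brightest probe sets) with 95% confidence intervals in spinal motor neurons, facial motor neurons and ventral cord tissue; open circles mark an adjusted p of 0.05 or more. All 30 circles are open, and the interval of Calb1 in spinal motor neurons runs from -5.25 to 1.21.

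Other genes of calcium handling were counted in the same way. Of 66 listed genes 58 had a probe set. Called higher and lower than tissue were 14 and 21 in mutant spinal, 10 and 15 in wildtype spinal, 11 and 19 in mutant facial and 8 and 20 in wildtype facial motor neurons. Over all probe sets 19.1% and 17.5%, 15.5% and 14.8%, 19.3% and 17.1%, and 19.8% and 17.9% were called higher and lower in these comparisons. The 58 genes were counted by their brightest probe sets, whereas these shares include dim probe sets. The median differences of the 58 genes from tissue were -0.06, -0.17, -0.15 and -0.28, against +0.14 to +0.16 over all probe sets. Between genotypes 0 of 58 were called by limma in any kind of sample, where 0% to 0.0777% of all probe sets were called. An unadjusted p under 0.05 from limma was found for 4 in spinal motor neurons, 9 in facial motor neurons and 8 in tissue. Of all 45037 probe sets, 3199, 5571 and 3133 had such a p, in the same order.

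Bsg, the gene of basigin, a chaperone subunit of the plasma membrane pumps, was among those of these genes that lay furthest below tissue in motor neurons. It was at -3.84 in mutant spinal, -4.46 in wildtype spinal, -4.00 in mutant facial and -4.41 in wildtype facial motor neurons. Basigin is also known from blood vessels. Nptn, of the related subunit neuroplastin, was at +0.19 in mutant spinal, +0.01 in wildtype spinal, +0.12 in mutant facial and 0.0045 in wildtype facial motor neurons, and none of these passed. Among calcium sensors Hpcal4 and Hpca were also lower than tissue in all 4 comparisons, from -5.99 to -3.87 for Hpcal4 and from -4.24 to -3.33 for Hpca. The motor neuron level of Hpcal4 was below background in 3 of the 4 groups, at 7.10, 7.93 and 8.48 in mutant spinal, mutant facial and wildtype facial samples, so these sizes do not measure the gene. S100a10, a small EF-hand protein that has lost calcium binding, was higher by +2.98 and +4.11 in mutant and wildtype spinal and by +3.12 and +4.29 in mutant and wildtype facial motor neurons.

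Of 5 release channels of calcium stores, 3 were called higher in mutant spinal, 2 in wildtype spinal, 3 in mutant facial and 2 in wildtype facial motor neurons, and 0 lower. Of 5 genes of store-operated entry, 2, 1, 2 and 2 were called higher and 0, 0, 1 and 2 lower, in the same order. Itpr3, a receptor channel for inositol trisphosphate, was higher than tissue by +3.22, +2.86, +2.07 and +1.87 in mutant spinal, wildtype spinal, mutant facial and wildtype facial motor neurons, and Ryr3, a ryanodine receptor, by +1.56, +1.60, +1.36 and +1.95. Stim2, a sensor of calcium in the endoplasmic reticulum, was higher by +1.72, +1.44, +1.27 and +1.18. All these passed the test. The related sensor Stim1 was at -0.11, -1.18, +0.13 and -0.64, and the last, in wildtype facial motor neurons, was called (adjusted p = 0.0277 from limma). Of 9 buffers and chaperones of the endoplasmic reticulum, 1 was higher and 6 lower in mutant spinal, 0 and 4 in wildtype spinal, 0 and 5 in mutant facial and 0 and 4 in wildtype facial motor neurons, where 14.8% to 19.8% of all probe sets were called in each direction. Canx, of the chaperone calnexin, was at -1.06, -1.13, -1.35 and -1.57. Atp2a2, the main pump of the endoplasmic reticulum in neurons, was called in mutant spinal motor neurons alone, at +0.25 (SE 0.09, adjusted p = 0.0475 from limma), and was at +0.23 in wildtype spinal motor neurons (SE 0.15, adjusted p = 0.271).

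Between the sites, Hpcal1 and Pcp4 were the other calcium genes called higher in spinal than in facial motor neurons in both genotypes. Hpcal1, a sensor of the visinin family, was at +1.66 in mutant and +1.95 in wildtype samples, and Pcp4, a small regulator of calmodulin, at +1.35 and +1.08. In mutants Itpr3 was also called higher, at +1.14, and Caln1 lower, at -0.90. Over the 58 genes 3 were called higher and 1 lower in mutant samples and 2 and 0 in wildtype samples, where 0.995% and 0.773% of all probe sets were called in mutant and 0.626% and 0.631% in wildtype samples. The 58 genes were again counted by their brightest probe sets, and the shares include dim ones.

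Genes whose profile over the 18 arrays was nearest to that of the 3 buffers were found by the root mean square difference of the profiles, each centred on its own mean. For Calb2 these were Hoxc10, Hoxc8 and Hoxd9, with root mean square differences of 0.668, 0.729 and 0.754 on the log2 scale. For Pvalb they were Lamp5, Paqr6 and Pcsk6, at 0.722, 0.789 and 0.845, and for Calb1 they were Crabp1, Gad1 and Slc6a5, at 1.12, 1.15 and 1.28. The Hox genes, which pattern the body axis, shared with Calb2 levels that were high in spinal motor neurons and tissue and low in facial motor neurons. The 18 arrays share the same 6 groups, so the values behind each likeness are not independent.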

How the data were processed

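Expression was measured on 18 Affymetrix mouse arrays, 3 in each of 6 groups that the sample descriptions define. The authors deposited 1 linear intensity per probe set and array, and tests on the deposited intensities showed that each array had the same 2% trimmed mean. Medians differed by kind, at 286.2 to 340.6 on motor neuron arrays and 533.2 to 583.3 on tissue arrays. The method that summarised probes into probe sets is not given in the sources used here, and T7 amplification is per the labels.

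Intensities were taken as log2(intensity + 16), which understates changes of dim genes, and quantile normalized. The 45037 probe sets without controls were tested unfiltered with limma 3.58.1 in R 4.3.3 (lmFit, eBayes with a mean-variance trend), using the arrays of the groups compared, with Benjamini-Hochberg adjustment. Comparisons that share arrays, such as spinal and facial motor neurons each against tissue, are not independent. Members were named through the platform annotation, which gave 1 symbol to 34945 probe sets, several to 932 and none to 9160. Members and gene lists were chosen with earlier results of these data known. Other calcium genes named are up to 4 per direction with the smallest p in a comparison, and Nptn and Atp2a2 were named after their values were seen. The fits were tested on simulated data. Arrays have no read depth, so their number limits the precision.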

Additional observations from a re-analysis of the deposited data

How the results depend on the processing

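Between kinds of sample, the number of the 10 members called changed by more than 1.5 times under some alternatives, and the cause was not tested. Wildtype spinal motor neurons against tissue gave 6 calls at a common median, against 3 as reported. Wildtype spinal against facial motor neurons gave 0 without a mean-variance trend and 0 with the actin ratio in the model, against 3. Mutant facial motor neurons against tissue gave 5 without the trend, against 8. Mutant spinal against facial motor neurons gave 2 with the brightest probe set of each gene above the 40th percentile, with all 18 arrays in a joint fit and with the actin ratio, against 1, where the added gene was Pvalb. Between genotypes the joint fit gave 1 call in facial motor neurons and 1 in the difference between sites, both Calb2, against 0.

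Same-numbered replicates deviated together with correlations of at most 0.05 over all probe sets. These correlations cannot decide whether same-numbered samples share an animal or a batch, and the main fits did not pair them. With the replicate number as a block, mutant spinal against facial motor neurons gave 2 calls in place of 1. The added gene was Pvalb, with an adjusted p of 0.000106 from limma.

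Leaving out 1 array at a time gave 6 to 9 calls in mutant spinal and 7 to 9 in mutant facial motor neurons against tissue, 2 to 5 and 7 to 9 in wildtype ones, and 1 to 2 (mutant) and 2 to 3 (wildtype) between sites. It gave 0 to 2 for genotype in spinal motor neurons and for that effect against tissue, with 2 in both cases without wildtype spinal replicate 2, and 0 in the other genotype comparisons. At a common median Slc8a1 turned to +0.63 in mutant spinal and +0.18 in mutant facial motor neurons against tissue. Of the settings for single probe sets, 4575 kept direction and side of the threshold. Without changing direction, 67 lost a call and 64 gained one. The direction changed in 202 settings with no call in either fit and in 2 with a call. The 4575 include probe sets called in neither fit, so they do not measure how firm the calls were.

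Over all probe sets, genotype calls were few and moved most: 35 in tissue as reported against 0 without the trend and 92 with the actin ratio, 17 in spinal motor neurons against 0 without the trend, 0 with the actin ratio, 174 in the joint fit and 618 without wildtype spinal replicate 2, and 0 in facial motor neurons against 543 in the joint fit and 329 without mutant facial replicate 2. With 3 arrays a group, a difference that missed the threshold is not shown to be absent.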
